A study of Mus musculus with 8 samples.

Results

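Glycolysis, glycogen breakdown and the entry of pyruvate into the mitochondrion were examined through 33 genes, taken by symbol from the 37982 genes of the authors' deposited table. At postnatal day 7 the ventricles of C57BL/6 pups were taken without the atria and their RNA was sequenced. The labels give 2 wild type, 3 double mutant and 3 triple mutant samples. As known from the study, the double mutants carried altered Mkl2, which encodes a partner protein of serum response factor, and altered Myh7, the beta myosin heavy chain, and the triple mutants carried in addition altered Nkx2-5, a homeodomain factor of heart muscle. The labels name no allele, zygosity or sex. The alleles were not restricted to a cell type by any driver named in the labels. The authors' deposited table holds 1 level per gene and group in FPKM, a level scaled to transcript length and to the size of the library, so no spread between pups can be given and the depth is unknown. All levels, fold changes, p and q values below are those of the authors' deposited table. A gene is said to have risen or fallen where its q value there, from Cuffdiff, is under 0.05.

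Glycolysis splits glucose into pyruvate in the cytosol. Glucose enters through the transporters Slc2a1 and Slc2a4, is trapped by hexokinase and is committed by phosphofructokinase. Pyruvate then either becomes lactate or enters the citric acid cycle through the pyruvate dehydrogenase complex, which its kinases switch off. The fetal heart relies strongly on glycolysis and lactate, and around birth it turns towards fatty acids. Several steps have a form typical of the adult heart or of other striated muscle, and a form that is widespread or fetal. These pairs are Pgam2 and Pgam1 for phosphoglycerate mutase, Eno3 and Eno1 for enolase, Pfkm and Pfkp for phosphofructokinase, and Ldhb and Ldha for lactate dehydrogenase, where Ldhb is the heart type subunit.

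The stretches before the starts of Pgam2, Pgam1 and Pdhb are printed because Pgam2 and Pdhb rose in both mutants while Pgam1, the partner of Pgam2, did not pass in either. Each is the 250 bases before the annotated start, 5′ to 3′ on the gene's strand, from RefSeq on GRCm38.p6. That build differs from the mm9 build of the expression table, so the 2 sets of coordinates cannot be compared. Pgam2 lies at chr11:5803797-5804046 on the minus strand, Pgam1 at chr19:41911621-41911870 on the plus strand and Pdhb at chr14:8172993-8173242 on the minus strand. Capitals mark matches to the motifs named after the sequences.
Pgam2: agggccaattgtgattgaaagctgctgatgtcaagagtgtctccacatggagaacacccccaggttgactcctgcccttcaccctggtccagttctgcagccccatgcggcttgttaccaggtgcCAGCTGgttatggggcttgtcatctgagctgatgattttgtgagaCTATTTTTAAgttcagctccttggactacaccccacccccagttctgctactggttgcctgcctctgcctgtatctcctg
Pgam1: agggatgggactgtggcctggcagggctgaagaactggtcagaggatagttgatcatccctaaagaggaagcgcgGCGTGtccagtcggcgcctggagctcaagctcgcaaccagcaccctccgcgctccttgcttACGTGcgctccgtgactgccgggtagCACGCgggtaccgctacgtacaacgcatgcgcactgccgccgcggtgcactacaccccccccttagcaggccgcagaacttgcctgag
Pdhb: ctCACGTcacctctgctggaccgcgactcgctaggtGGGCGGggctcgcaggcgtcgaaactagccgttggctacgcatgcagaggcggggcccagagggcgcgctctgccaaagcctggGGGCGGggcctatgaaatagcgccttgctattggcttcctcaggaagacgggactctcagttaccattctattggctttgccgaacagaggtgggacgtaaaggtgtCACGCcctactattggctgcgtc

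The motifs were searched on both strands. They were the MEF2 site, the CArG box bound by serum response factor, the E-boxes CAGCTG and CACGTG, the hypoxia response cores ACGTG and GCGTG, the GC box GGGCGG, and TCAAGTG, a form of the Nkx2-5 element. Each CACGTG also holds ACGTG on both strands. Pgam2 had a MEF2 match starting 80 bases before its start and CAGCTG at 125 bases. Pgam1 had ACGTG at 114 bases and GCGTG at 175 and 88 bases, and no match to the MEF2 site. Pdhb had GGGCGG at 214 and 130 bases, ACGTG at 248 bases and GCGTG at 23 bases. In all, 32 members were found in the sequence table with 51 windows, and Slc2a4 is the member not matched. A MEF2 match stood in windows of 2 of these 32 members, Pgam2 and Pfkfb1, and in 1.69% of all 32851 windows of this length. The hypoxia core ACGTG stood in 15 of 32 members (16.6% of all windows) and GCGTG in 21 (28.2%). CAGCTG was found for 9 members (13.0% of all windows), CACGTG for 6 (6.02%), GGGCGG for 19 (32.7%), TCAAGTG for Pdk1 only (2.68%) and a CArG box for 0 of 32 (1.47%). Members with several starts have several windows, so counts per member and shares per window are not on the same base. A match describes letters in a window and not a bound site.

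In levels, the members spanned from 0.775 FPKM for Pfkfb1 in the double mutant to 660.5 FPKM for Pgam2 in the same group. Of the 32 members that the authors' deposited table gives with 3 levels, 25 stood at 20 FPKM or more in all 3 groups. Summed over the 32 members, the level was 3276 FPKM (wild type), 4013 (double mutant) and 3854 (triple mutant). This sum leaves out Aldoa and is weighted to the most abundant genes. Pgam2 alone gave 379, 660.5 and 550.0 FPKM of it, so the sum does not describe a typical member. Aldoa, the muscle aldolase, stood at 389 FPKM in wild type, and its estimates failed in both mutants with the mark the program sets when fragments are too numerous, so it has no fold change. Of the 33 members, 12 share their listed locus with another gene, and the counting could have split or joined reads there.

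**Figure D1:**
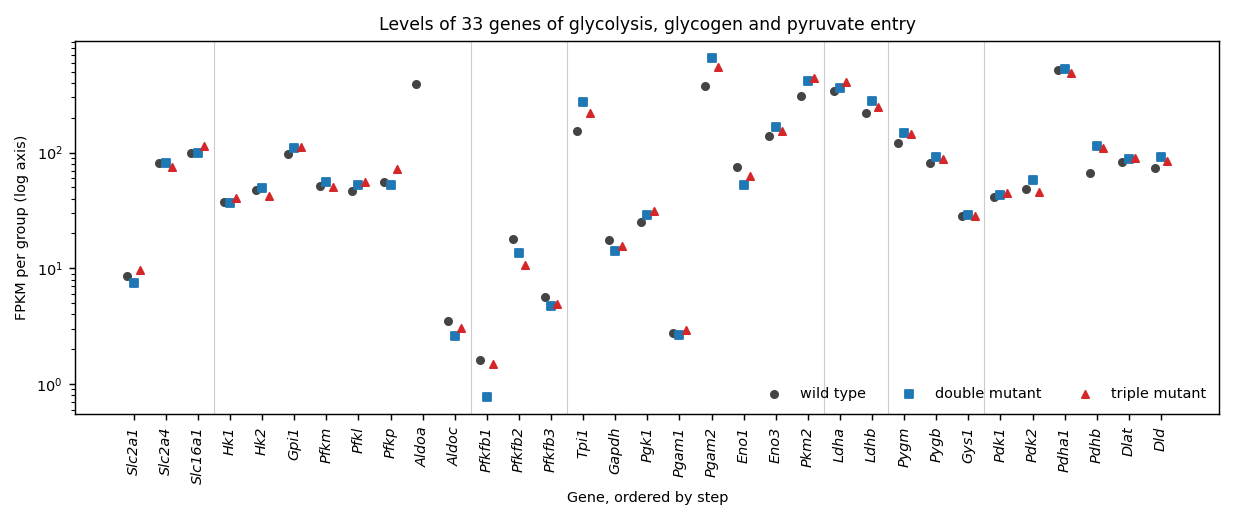
Level of each member in FPKM (log axis) in the wild type, double mutant and triple mutant groups, 1 point per group, with vertical lines between steps of the pathway. Pgam2, Tpi1 and Pdhb stand highest in the double mutant and lowest in wild type, Pfkfb2 spans 17.8 (wild type) to 10.7 FPKM (triple mutant), and Aldoa has a point for wild type only.

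Between double mutant and wild type, 3 of 32 tested members rose and none fell, which is 9.38% against 2.65% of all genes tested (1.89% higher and 0.767% lower). At the authors' own mark, a q under 0.1, the count was again 3, against 4.41% of all genes. Among genes at 20 FPKM or more in either group the share called was 4.62%. The members' median log2 fold change was 0.07, against -0.0040 over all genes tested, and 22 of 32 were positive. At an unadjusted p under 0.05 there were 9 members, 28.1% against 16.3% of all genes. Between triple mutant and wild type, 3 of 32 tested members rose and 1 fell, 12.5% against 1.52% of all genes tested (1.16% higher and 0.362% lower) and 3.02% of those at 20 FPKM or more. In both comparisons the members' share covers all tested members and was not taken at 20 FPKM or more. Pfkfb2, the member that fell, lay below that level at 17.8 FPKM (wild type) and 10.7 (triple mutant). The authors' mark again gave 4 members, against 2.75% of all genes. There the median was 0.12 against -0.0033, with 20 of 32 positive, and 6 members (18.8%) had an unadjusted p under 0.05 against 12.1% of all genes. Both comparisons use the same wild type samples, and the comparison of the 2 mutants shares its samples with them, so the 3 are not independent. The list was chosen with earlier results known, and no test of the list was made.

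By genotype the triple and double mutants differ by the Nkx2-5 alteration. Their levels of Xist, a sex-linked gene, differed too, at 88.2 FPKM (triple) and 1.21 (double) with a Cuffdiff q of 0.0066. Sex is not labelled, so the part of sex and of Nkx2-5 cannot be told apart here. By Cuffdiff 0 of 31 tested members passed between these mutants. The share called was 1.25% of all genes tested (0.704% higher and 0.547% lower) and 2.1% of those at 20 FPKM or more. The authors' mark also gave 0, against 1.98% of all genes. Of the members, 2 had an unadjusted p under 0.05 (6.45% against 8.45% of all genes). These were Pdk2, at a log2 fold change of -0.32, and Pfkfb2, at -0.35. The median was 0.02 against -0.0011 over all genes tested. A missing call does not show that the groups are alike, since the table gives no interval for a difference.

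**Figure D2:**
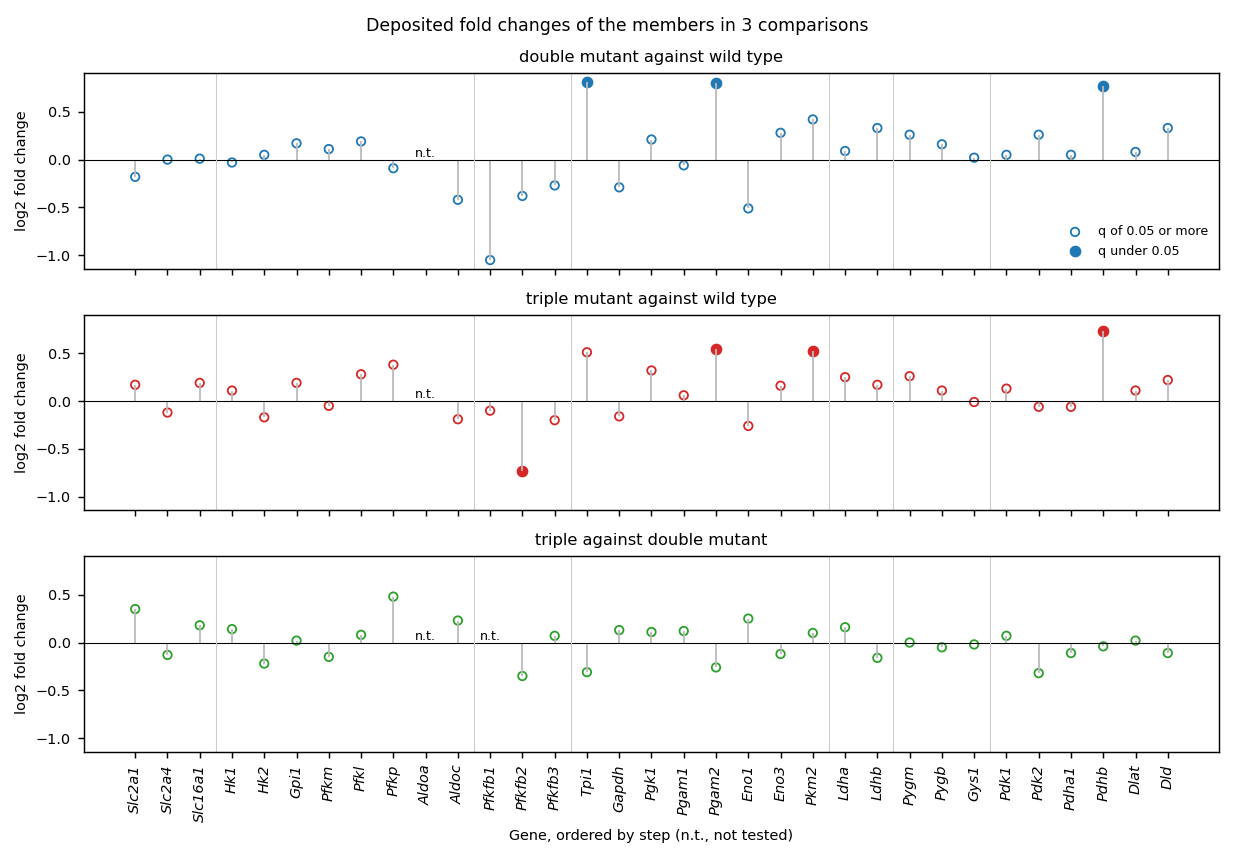
Deposited log2 fold change of each member in 3 comparisons, ordered by step, with filled points where q is under 0.05 and n.t. where a gene was not tested. Filled points are Tpi1, Pgam2 and Pdhb for double mutant against wild type and Pfkfb2, Pgam2, Pkm2 and Pdhb for triple mutant against wild type, and the lowest panel has none.

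Phosphoglycerate mutase gave one of the clearest differences. Pgam2, the muscle mutase (ENSMUSG00000020475, mm9 chromosome 11, 5701643 to 5703736), was at 379 FPKM (wild type), 660.5 (double mutant) and 550.0 (triple mutant) in the authors' deposited table. It rose 1.74-fold in the double mutant (log2 0.80, q = 0.0066) and 1.45-fold in the triple mutant (log2 0.54, q = 0.015). Triple against double did not pass (log2 -0.26, q = 0.436). The widespread form Pgam1 (chromosome 19, 41986361 to 41993154) stood at 2.79, 2.67 and 2.91 FPKM in the same order of groups in the authors' deposited table, with q values of 0.972 for the double and 0.973 for the triple mutant against wild type. By these levels Pgam2 made up 99.3% to 99.6% of mutase FPKM in each group. Pgam1 is listed at a low level and, unlike Pgam2, has near-identical pseudogenes, so this share and the ratio are uncertain. The ratio Pgam2/Pgam1 was 136, 247 and 189, a log2 difference from wild type of 0.87 (double) and 0.48 (triple). As Pgam1 differed little in value, these differences follow Pgam2.

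The enolase ratio differed in the same direction, although neither gene passed. Eno3, the muscle enolase, had levels of 138 (wild type), 168 (double) and 154 FPKM (triple) by the authors' deposited table (q = 0.353 for double and 0.737 for triple against wild type). Eno1, the widespread form, stood at 74.7, 52.5 and 62.2 FPKM there (q = 0.208 and 0.627). Against wild type the values of the pair differed in opposite directions, and the sum lay between 213 and 220.4 FPKM. The share of Eno3 was 64.9% (wild type), 76.2% (double) and 71.3% (triple). As a log2 ratio, Eno3/Eno1 was 0.89, 1.68 and 1.31. These ratios rest on 1 value per group and were not tested.

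Phosphofructokinase, the committing step, is built from 3 subunit genes at like levels. Pfkm, the muscle subunit, stood at 51.9, 55.9 and 50.3 FPKM, and Pfkp, the platelet type subunit, at 55.5, 52.0 and 72.5 FPKM in the authors' deposited table. Pfkp was thus highest in the triple mutant, with q = 0.41 against the double mutant and 0.549 against wild type, so it did not pass. The log2 ratio Pfkm/Pfkp was -0.10 (wild type), 0.10 (double) and -0.53 (triple). Pfkl, the liver type subunit, stood at 46.2, 52.8 and 56.0 FPKM in that table (lowest q 0.77). The share of Pfkm in the summed level was 33.8%, 34.8% and 28.1%. Pfkm shares its locus with Senp1 and Pfkp with Pitrm1, so both are uncertain.

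Lactate dehydrogenase gave no call in either subunit. Ldha, which favours lactate production, stood at 341, 363 and 405 FPKM in the authors' deposited table (q = 0.92 for double and 0.555 for triple against wild type). Ldhb stood at 221, 277 and 249 FPKM there (q = 0.27 and 0.733). The share of Ldhb was 39.3%, 43.3% and 38.1% in the same order, and the log2 ratio Ldhb/Ldha was -0.63, -0.39 and -0.70. In all 4 pairs the muscle or heart form had its highest ratio in the double mutant, which was not tested. Of the genes in these pairs only Pgam2 passed in any comparison, and none passed between the mutants. Outside these pairs, Slc2a4/Slc2a1 and Hk2/Hk1 were also highest in the double mutant. The glycogen phosphorylase pair Pygm/Pygb, muscle over brain type, was highest in the triple mutant (log2 ratio 0.58, 0.68 and 0.73). Against wild type the triple mutant was higher for Pgam2/Pgam1 and Eno3/Eno1 and lower for Pfkm/Pfkp and Ldhb/Ldha.

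**Figure D3:**
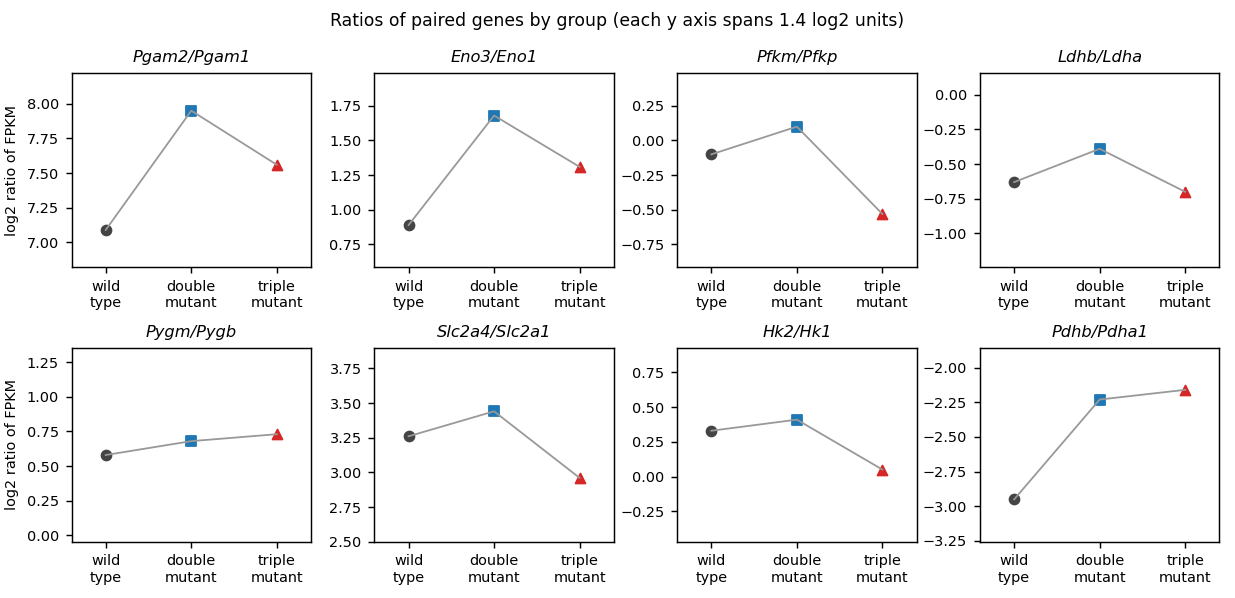
Log2 ratio of FPKM for 8 gene pairs in wild type, double mutant and triple mutant, 1 value per group and no error, each axis spanning the same number of log2 units. Pgam2/Pgam1 and Eno3/Eno1 peak in the double mutant and stay above wild type in the triple mutant, Pfkm/Pfkp drops to -0.53 in the triple mutant, and Pdhb/Pdha1 is higher in both mutants.

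The other enzymes between triose phosphates and pyruvate differed among themselves. Tpi1, triose phosphate isomerase (chromosome 6, 124758679 to 124764314), was at 155 FPKM (wild type), 272 (double mutant) and 219.9 (triple mutant) in the authors' deposited table. It rose 1.76-fold in the double mutant (log2 0.81, q = 0.0271), while the triple mutant against wild type did not pass (1.42-fold, q = 0.137). The 2 mutants were not called different from each other (q = 0.636). Tpi1 shares its locus with Spsb2, which stood at 4.15, 4.29 and 5.54 FPKM in the authors' deposited table. Pkm2, pyruvate kinase (chromosome 9, 59504383 to 59527182), stood at 311, 417 and 445 FPKM there. It rose 1.43-fold in the triple mutant (log2 0.52, q = 0.0458), and the double mutant against wild type did not pass (1.34-fold, q = 0.121). The Pkm2 call was lost when p values were adjusted within that comparison alone (q = 0.0541). The row sums all transcripts of the gene, so its M1 and M2 splice forms cannot be told apart.

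Pgk1, phosphoglycerate kinase on chromosome X, stood at 25.1, 29.0 and 31.4 FPKM in the authors' deposited table (q = 0.333 for triple against wild type). Gapdh, the dehydrogenase often used as a reference gene, was listed there at 17.4, 14.2 and 15.6 FPKM (lowest q 0.709). Tpi1, the enzyme before it, stood at 155 to 272 FPKM. In GENCODE M21, 166 pseudogenes match the Gapdh transcript at 90% identity or more over at least 300 bases. The authors' deposited table lists 62 of them, with a summed level of 74.9 FPKM (wild type), 62.1 (double mutant) and 78.9 (triple mutant), above Gapdh itself. The same search found 3 pseudogenes for Pgam1, 5 for Eno1 beside the near-identical gene Eno1b, 8 for Pkm2, 13 for Ldha, 4 for Pgk1, 2 for Tpi1, 1 for Pdhb and 0 for Pgam2 and Eno3. Levels of members with near-identical copies are uncertain, since the counting could split their reads. The same holds for shares and ratios built on Pgam1, Eno1 and Ldha, whose partners Pgam2, Eno3 and Ldhb have fewer copies or none. For Pgam1 the 3 pseudogenes are all listed in the authors' deposited table and summed to 1.34, 0.563 and 0.521 FPKM. These sums do not show how many reads of Pgam1 were lost or placed elsewhere. How much the copies entered the low levels of Gapdh and Pgam1 was not tested.

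Glucose entry and the early steps gave no call. Slc2a4, the insulin-responsive transporter, stood at 81.6, 81.8 and 74.9 FPKM, and Slc2a1, the transporter prominent in the fetal heart, at 8.53, 7.53 and 9.60 FPKM in the authors' deposited table. Slc2a4 made up 90.5%, 91.6% and 88.6% of their sum. Slc16a1, which carries lactate and pyruvate across the cell membrane, stood at 98.9, 99.6 and 113 FPKM in that table (lowest q 0.681). The hexokinases Hk1, widespread, and Hk2, the insulin-responsive muscle form, stood at 37.7, 36.8 and 40.5 and at 47.4, 49.1 and 42.0 FPKM there, so their sum lay between 82.6 and 85.9 FPKM. The isomerase gene Gpi1 stood at 97.9, 110.3 and 112 FPKM in the authors' deposited table (lowest q 0.716). Aldoc, an aldolase best known from brain, was low at 3.50, 2.61 and 3.06 FPKM there.

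The bifunctional enzymes make and break down the fructose bisphosphate that activates phosphofructokinase, and their genes had negative values against wild type in both mutants. Pfkfb2, the heart form (chromosome 1, 132585620 to 132625830), was at 17.8 FPKM (wild type), 13.7 (double mutant) and 10.7 (triple mutant) in the authors' deposited table. It fell 1.66-fold in the triple mutant against wild type (log2 -0.73, q = 0.0066). The double mutant lay between the other groups, and neither its difference from wild type (log2 -0.38, q = 0.309) nor the triple mutant's difference from it (log2 -0.35, q = 0.351) passed. Pfkfb2 shares its locus with Yod1, which stood at 4.86, 4.40 and 3.98 FPKM there. It was the only member with levels descending from wild type through the double to the triple mutant, and this order was not tested. Pfkfb3, the inducible form, stood at 5.66, 4.69 and 4.92 FPKM in the authors' deposited table (lowest q 0.864). Pfkfb1, the liver and muscle form, stood at 1.6, 0.775 and 1.5 FPKM (lowest q 0.721) and was not tested between the mutants. Pfkfb1 shares its locus with Apex2 and with the red cell gene Alas2, so it is uncertain. Alas2 stood at 23.1, 16.1 and 16.5 FPKM in the authors' deposited table. The summed level of the 3 Pfkfb members was 25.1, 19.2 and 17.2 FPKM. The fourth gene of the family, Pfkfb4, is not a member and stood at 2.52, 1.97 and 1.42 FPKM in the authors' deposited table (lowest q 0.337).

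Glycogen genes gave no call among the members. Pygm, the muscle phosphorylase that releases glucose units from glycogen, stood at 122, 147 and 146 FPKM in the authors' deposited table (q = 0.701 for double and 0.651 for triple against wild type). Pygb, the brain type phosphorylase, stood at 81.6, 91.4 and 88.0 FPKM there, and Gys1, muscle glycogen synthase, at 28.6, 28.9 and 28.5 FPKM. Gys1 had the smallest range over groups of these 3 genes.

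Among the members for pyruvate entry, Pdhb was the only gene to pass. Pdhb encodes the beta subunit of pyruvate dehydrogenase itself, the enzyme that removes carbon dioxide from pyruvate (chromosome 14, 8998505 to 9005506). It was at 66.3 FPKM (wild type), 113 (double mutant) and 109.9 (triple mutant) in the authors' deposited table. Pdhb rose 1.70-fold in the double mutant (log2 0.77) and 1.66-fold in the triple mutant (log2 0.73), each at a Cuffdiff q of 0.0066. This is the lowest q in the file and is shared with other genes, among them Pgam2 (double) and Pfkfb2 (triple against wild type). The 2 mutants were close in value (log2 -0.04, q = 0.97). Its partner Pdha1, the alpha subunit on chromosome X, stood at 512, 530.1 and 489.8 FPKM there (lowest q 0.904) in a locus shared with Map3k15. The log2 ratio Pdhb/Pdha1 was -2.95, -2.23 and -2.16.

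The other subunits did not pass. Dlat, the acetyltransferase, stood at 82.7, 87.6 and 89.0 FPKM, and Dld, the lipoamide dehydrogenase, at 72.9, 91.7 and 85.1 FPKM in the authors' deposited table (Dld q = 0.212 for double against wild type). The inhibiting kinases Pdk1 and Pdk2 stood at 41.2, 42.8 and 45.0 and at 48.2, 57.6 and 46.1 FPKM there, with a lowest q of 0.88 for Pdk1 and 0.29 for Pdk2. Of the 6 members for the complex and its kinases, Pdk1, Pdk2, Pdha1, Pdhb, Dlat and Dld, all had positive values in the double mutant against wild type and 4 did in the triple mutant. The kinases outside the members, Pdk3 (log2 -0.20, q = 0.842) and Pdk4 (log2 -0.56, q = 0.0066), had negative values in the double mutant by the authors' deposited table.

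Of 55 further genes of the pathway in the table, 44 were tested for double mutant against wild type, where 3 rose and 2 fell, 11.4% against 2.65% of all genes tested. The median log2 fold change was 0.04, with 23 positive and 21 negative. In each of the other comparisons 1 of 45 passed, a share of 2.22% and near the background, which was 1.52% of all genes where the triple mutant was set against wild type and 1.25% where it was set against the double. Pdk4, the kinase induced by fasting and fatty acids, fell 1.48-fold from 166 to 113 FPKM (q = 0.0066) by the authors' deposited table, which gives 141 FPKM for the triple mutant. Pdk4 made up 62.7%, 50.9% and 57.7% of the FPKM of the 4 kinase genes. Fbp2, the muscle fructose bisphosphatase, rose 1.60-fold in both mutants, from 9.06 to 14.5 FPKM in each (q = 0.0356 in both comparisons), and was the only further gene of 45 tested to pass for triple against wild type.

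Glycogen regulators made up the remaining calls. Ppp1r3c, which targets a phosphatase to glycogen and favours its synthesis, stood at 32.4, 50.8 and 29.4 FPKM in the authors' deposited table. It rose 1.57-fold in the double mutant against wild type and fell 1.73-fold in the triple against the double mutant, each at q = 0.0066. It was the only call of 45 tested between the mutants, so the double mutant stood apart from both other groups. Ppp1r3b, a related targeting subunit, rose 1.46-fold in the double mutant (21.7 to 31.6 FPKM, q = 0.0184), with 25.4 FPKM in the triple mutant, in that table. Phka2, a regulatory subunit of phosphorylase kinase, fell 1.47-fold in the double mutant (29.0 to 19.8 FPKM, q = 0.0342), with 25.1 FPKM in the triple mutant there. Slc16a3, the lactate exporter of glycolytic cells, stood at 9.07, 6.04 and 8.16 FPKM and did not pass (lowest q 0.721).

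Among 22 tested regulators of glycolysis 1 passed in each mutant against wild type, 4.55% against 2.65% of all genes for the double and 1.52% for the triple mutant. The oxygen sensor Egln3 rose in the double mutant (12.8 to 18.5 FPKM, q = 0.0321) and the nuclear receptor Ppara fell in the triple mutant against wild type (12.3 to 7.37 FPKM, q = 0.0244), in the authors' deposited table. Hif1a, the oxygen-regulated factor that drives many glycolytic genes, stood at 138, 146 and 145 FPKM there (lowest q 0.957), although it is controlled mainly at the protein level. Of 18 tested hypoxia response genes outside glycolysis P4ha1, a collagen prolyl hydroxylase, was the call in each mutant against wild type (5.76 FPKM in wild type, 8.69 and 9.34 in the mutants, q = 0.0398 and 0.0244). That is 5.56% of the list, against 2.65% and 1.52% of all genes tested. The median of that list was 0.20 (double) and 0.11 (triple). Of 16 citric acid cycle genes tested for double mutant against wild type, Mdh1 rose (162 to 272 FPKM, q = 0.0244, in the authors' deposited table) and was the only call, 6.25% against 2.65% of all genes. In that comparison 15 of the 16 values were positive. With the triple mutant set against wild type, 13 of 17 were positive and 0 passed by Cuffdiff, against 1.52% of all genes. An unadjusted p under 0.05 was seen there for 2 of the 17, a share of 11.8% beside 12.1% of all genes tested. The list medians were 0.17 for double and 0.20 for triple mutant against wild type. These medians stand beside the members' 0.07 and 0.12, and their difference was not tested.

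**Figure D4:**
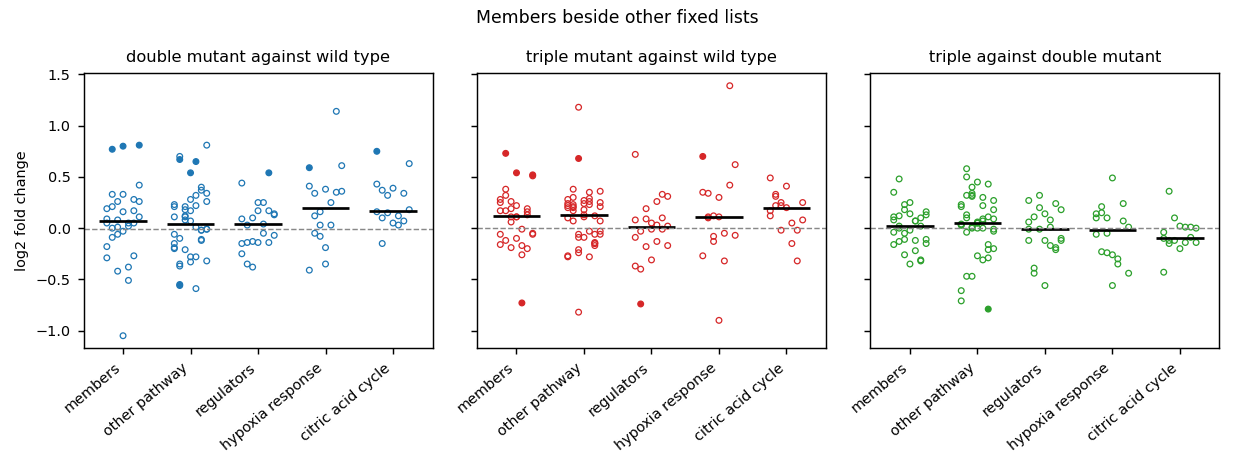
Log2 fold changes of the members and of 4 other gene lists in 3 comparisons, 1 point per tested gene, filled where q is under 0.05, with a bar at each list's median and a dashed line at the median of all genes tested. The members' medians are 0.07, 0.12 and 0.02 from left to right, and the citric acid cycle list has 15 of 16 values above 0 for double mutant against wild type, beside 22 of 32 members.

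Several features of the samples differed in value between these groups. In bulk tissue fewer cells of a type and less RNA per cell cannot be told apart. The 10 endothelial markers summed to 752, 707 and 629.9 FPKM in wild type, double and triple mutant, and the 8 fibroblast markers with a value in all groups to 562, 649 and 528 FPKM. The 8 smooth muscle and pericyte markers summed to 379.6, 429 and 350.0 FPKM, of which Kcnj8 fell in the triple against the double mutant (q = 0.0114 in the authors' deposited table). Kcnj8 was the only call among the tested cell type markers in any comparison. The 8 macrophage markers summed to 51.0 to 54.8 FPKM and the 7 red cell markers to 375 to 418 FPKM. The 8 brown fat markers summed to 97.5 to 123 FPKM, of which Fabp4 gave 97.3, 102 and 77.1 FPKM in the same order of groups. Adipoq was at 0 in every group, Ucp1, Elovl3 and Plin1 at 0.072 FPKM or less, and Cidea, Dio2 and Pparg at 4.12 to 11.3 FPKM. Of 12 cardiomyocyte markers 11 had failed estimates from too many fragments in at least 1 group, and Ckm stood at 305, 418 and 388 FPKM, so for heart muscle a sum over its markers cannot be given. Skeletal muscle, which also uses Pgam2 and Eno3, left little trace, since 11 of its 12 markers summed to 1.15 to 1.81 FPKM, with Myh2, Myh4, Myod1 and Pvalb at 0, and Acta1 had a failed estimate.

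Sex-linked genes differed too. The Y-linked Ddx3y was at 4.82 FPKM in wild type and 14.0 in the double mutant, with the triple mutant in between, in the authors' deposited table. Xist there was at 1.21 FPKM (double mutant) and 88.2 (triple mutant), with a failed estimate in wild type. The sex of the pups is not labelled, so sex and genotype cannot be told apart. Short transcripts stood slightly higher in both mutants against wild type. The median log2 fold change in the shortest of 8 length bins was 0.08 in each, and in the longest it was -0.10 for the double and -0.07 for the triple mutant. Measured against genes of like transcript length, Pgam2 was higher by 0.72 and 0.46 (log2) in the double and triple mutant, Pdhb by 0.72 and 0.69, Tpi1 by 0.71 in the double mutant and Pkm2 by 0.47 in the triple mutant. Pfkfb2 was at -0.71 in the triple mutant on that scale. The part of cell composition and sex in these results was not tested.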

How the data were processed

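Total RNA from 8 ventricle samples was made into stranded libraries, per the labels' protocols. The submitters' processing notes name Cuffdiff 2.2.1 and Cufflinks 2.2.1, STAR 2.5.2, CASAVA 1.8 and the mm9 build. For annotation and normalization, the settings were not given in the sources used here. For each gene the authors deposited 1 FPKM per group, the log2 fold change, a Cuffdiff test statistic (a score), p-value and q-value for 3 comparisons, per the file headers. Nothing in the labels says which samples entered the test or whether they are separate animals, so p-values may measure technical spread. Sample descriptions begin with one of 2 prefixes, both found in every group, which group values do not allow to be compared. Depth is not kept in FPKM, and arms of 2 or 3 samples limit precision.

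Benjamini-Hochberg adjustment of the deposited p-values over all 3 comparisons together gave back the q-values (largest difference 5.26e-07), and the authors' mark falls at 0.1. The test statistic was not used as an error, since its normal p exceeded the deposited p in 99.4% of tested rows. Zeros in rows marked as having too many fragments (2036 rows, 709 genes) were treated as missing. Coordinates are the file's start plus 1. No new test across samples was possible, so limma, planned for values per sample, was not run. Near-identical copies were searched with BLAST 2.17.0 in GENCODE M21 transcripts, and motifs in RefSeq windows. Gene symbols are those of the file, and Pkm2 was matched to Pkm. Counting and adjustment were tested on simulated data. Members and lists were chosen with earlier results of these data known. The text names each member called, the isoform partners, sole or rate-controlling enzymes, each called gene of the other lists, and Pdk4, Slc16a3 and Hif1a. Motifs, promoters, the 4 extra gene pairs and the remaining genes were chosen after values were seen.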

Additional observations from a re-analysis of the deposited data

How the results depend on the processing

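No paired analysis was possible because the deposited table holds 1 value per group and none per sample, and for the same reason no sample could be left out. The counts of members called stayed within 1.5-fold at the authors' own mark, with q-values adjusted within a comparison, at a minimum of 5 FPKM and without shared loci. Leaving out shared loci removed Tpi1 in the double and Pfkfb2 in the triple mutant, both against wild type. Only the Pkm2 call was lost within its comparison (q = 0.0541). The median of the members between triple and double mutant, 0.02, became -0.01 at a minimum of 5 FPKM and -0.01 without Gapdh, Pgam1 and Eno1, a choice made after seeing the data, so it has no direction. The other medians and the 4 isoform ratio differences moved by less than 0.1 (log2) under a pseudocount of 1 FPKM. The medians did so too under centring on all genes or, added after seeing the data, on genes of like transcript length. A bound of 0.1 is wide beside the double mutant median, 0.07 to 0.09 under these settings. It is also wide beside the Ldhb/Ldha difference of triple mutant from wild type, -0.08 with and without the pseudocount. Adding 1 FPKM could hardly move ratios of abundant genes.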
